A study of Mus musculus with 11 samples.

Results

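Solute carriers (SLC genes) encode membrane proteins that move ions, metals and nutrients. The genes described here belong to the 14 SLC families that carry phosphate, metals and inorganic ions, picked by gene symbol: families 4, 8, 9, 11, 12, 20, 24, 26, 30, 31, 34, 39, 40 and 41. That symbol rule was set with earlier results of these data known. In the expression table, 63 of the 14847 named genes met this rule, and a gene assembled as several loci took the level of its highest locus. The study followed wild-type mouse mammary gland of the mixed background 129SV::FVB/N::C57BL/6 through pregnancy to parturition (L1). Levels come from 1 RNA-seq library of whole mammary tissue taken at parturition with the lymph nodes removed. The number of animals behind it is not stated in the labels. They are given as FPKM, fragment counts adjusted for the length of the transcript and the depth of the library, so genes can be compared per length. With 1 library there is no replicate error and no test, sequencing depth is unknown, and every difference below is a difference between genes in that library.

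The secretory cells of the lactating gland take up phosphate, zinc, iron and copper from blood, and load part of them into the Golgi and secretory vesicles that release milk. Zinc exporters (the ZnT proteins of SLC30) lower cytosolic zinc by moving it out of the cell or into vesicles, and zinc importers (the ZIP proteins of SLC39) raise it. Exchangers of sodium, protons, chloride and bicarbonate set the cell's volume and pH and the salt content of the fluid.

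A few carriers held most of the signal of the 63. Slc34a2 alone made up 29.0% of their summed FPKM, the highest 5 made up 53.3% and the highest 25 made up 93.7%. The median member stood at 3.39 FPKM, against 3.90 for all named genes, with quartiles of 0.65 and 15.1 for the members and 0.91 and 11.4 for all named genes. At least 1 FPKM was reached by 42 of the 63, or 66.7%, beside 73.6% of named genes. At least 10 FPKM was reached by 20, or 31.7%, beside 27.9% of named genes, and at least 100 FPKM by Slc34a2 alone, beside 2.96%. As a whole the carriers thus lay near the background of named genes at each level. The 182 other SLC genes had a median of 3.32 FPKM, and 48 of them, or 26.4%, reached 10 FPKM.

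**Figure D1:**
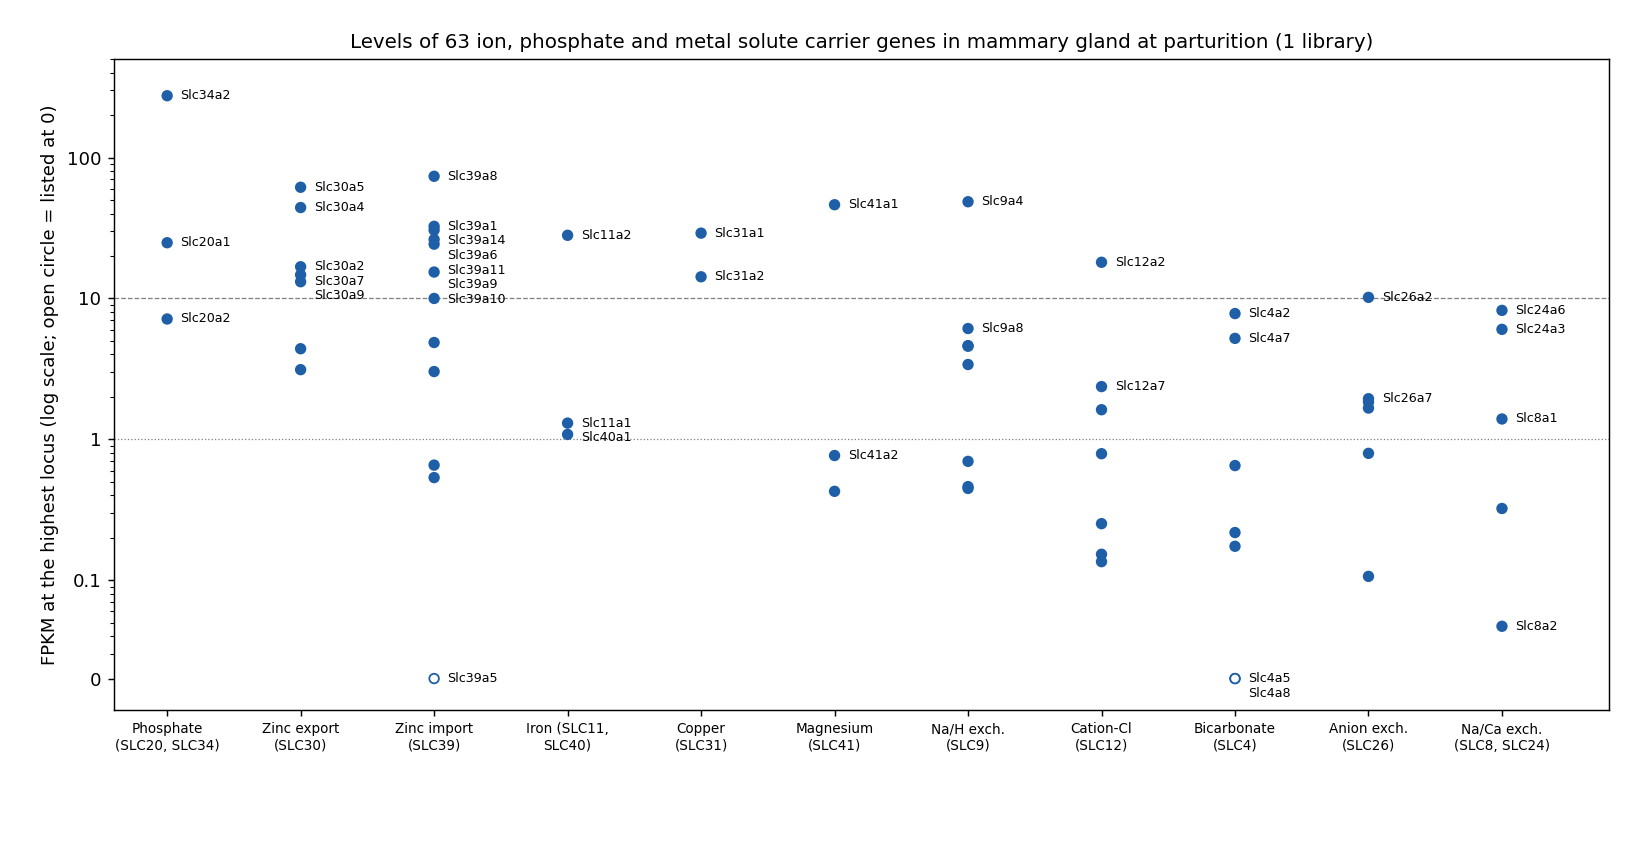
Level of each of the 63 genes at its highest locus, in FPKM on a log scale, grouped by what the family carries; each point is 1 gene in 1 library, open circles are genes listed at 0, and the dashed and dotted lines mark 10 and 1 FPKM. Slc34a2 stands alone at 275 FPKM, and in most families a single gene or a few genes lie well above the rest.

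Within the group, metal carriers were high more often than carriers of other ions. Of the 27 members of the zinc, iron, copper and magnesium families (11, 30, 31, 39, 40 and 41), 15 reached 10 FPKM, or 55.6%, and their median was 14.2 FPKM. Of the 36 others, 5 did, or 13.9%, with a median of 1.64 FPKM. This division was made after the values were seen. The 5 others were Slc34a2, Slc9a4, Slc20a1, Slc12a2 and Slc26a2, each from a different family. At 1 FPKM the counts were 22 of 27 metal carriers and 20 of 36 others. Zinc families made up 19 of the 27 metal carriers, and 11 of these 19 reached 10 FPKM, or 57.9%. Of the 8 metal carriers without zinc, 4 did, or 50%, with a median of 7.77 FPKM. The 2 copper genes reached it, but only 1 of 3 iron and 1 of 3 magnesium carriers did. Those 2 groups had medians of 1.30 and 0.77 FPKM. Of the 3 phosphate carriers, 2 reached 10 FPKM.

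**Figure D2:**
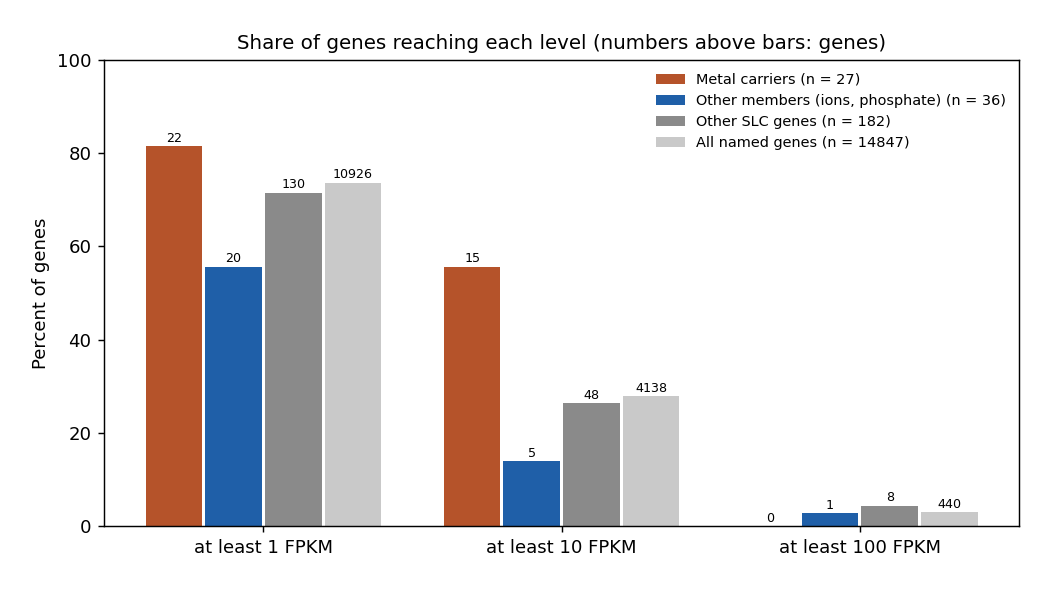
Percent of genes that reached 1, 10 and 100 FPKM among metal carriers, the other members, all other SLC genes and all named genes, with the number of genes above each bar. At 10 FPKM the metal carriers stand at 55.6% and the other members at 13.9%, on either side of all named genes at 27.9%.

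Of the phosphate carriers, Slc34a2 was the highest member of all. It encodes a sodium-phosphate cotransporter of the apical membrane of epithelia and stood at 275 FPKM, which placed it at rank 199 of 14847 named genes. The next member of any family, Slc39a8, was 3.73 times lower. The ubiquitous phosphate importers Slc20a1 and Slc20a2, which also serve as retrovirus receptors, stood at 24.9 and 7.14 FPKM. Slc20a1 was assembled as a pair of loci of nearly equal level, 24.9 and 23.3 FPKM, so that its sum over loci was 48.1. Slc34a2 therefore lay 11.1 times above Slc20a1 at the highest locus and 5.71 times above it by the sum. Of the 8 measured genes listed for phosphate handling outside these families, 2 reached 10 FPKM. The highest were Phex, an endopeptidase gene of bone cells, at 217 FPKM from a single locus, the parathyroid hormone-related protein gene Pthlh at 13.8 and the alkaline phosphatase gene Alpl at 8.39. The phosphate exporter gene Xpr1 was at 3.64 FPKM.

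Among the zinc exporters, all 7 measured SLC30 genes reached 1 FPKM and 5 reached 10, with a median of 14.7 FPKM. Of all named genes, 73.6% reached 1 FPKM and 27.9% reached 10. Slc30a5, whose protein brings zinc into the early secretory pathway, was highest at 61.6 FPKM. It works there as a heterodimer with the product of Slc30a6, and Slc30a6 stood at only 4.39 FPKM, 14.01 times lower, or 7.15 times lower by sums over loci. Slc30a7, the other Golgi zinc carrier, was at 14.7 FPKM, 4.18 times below Slc30a5. Slc30a4, the gene mutated in the lethal milk mouse, whose pups die on zinc-poor milk, stood at 44.2 FPKM. Slc30a2, whose human counterpart is mutated in mothers with zinc-poor milk, stood at 16.8 FPKM, or 24.8 summed over its 3 loci. Slc30a4 was thus 2.63 times above Slc30a2, and 1.78 times by sums. Slc30a9, a zinc carrier of mitochondria, was at 13.1 FPKM and at 21.3 by its sum. Lowest was the plasma membrane exporter gene Slc30a1, at 3.12 FPKM.

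The zinc importers spanned a wider range. The 12 measured SLC39 genes ran from 0 to 73.7 FPKM with a median of 12.7. At least 10 FPKM was reached by 6 of them, beside 27.9% of named genes. Slc39a8, which imports zinc, manganese and iron, was the highest at 73.7 FPKM, with its other loci at 0.69 and 0.25. Its close relative Slc39a14 stood at 30.6 FPKM, 2.41 times lower. The size of this gap rests on the choice of locus: Slc39a14 was assembled as 4 loci, the other three at 14.2, 13.9 and 12.8 FPKM, and its sum of 71.4 came to nearly that of Slc39a8 at 74.6. Slc39a1, a plasma membrane importer, was at 32.5 FPKM. Slc39a6 and Slc39a10, whose proteins form a heteromer at the plasma membrane, were at 26.2 and 9.995 FPKM, and at 27.0 and 15.6 summed over loci. The carriers of intracellular membranes Slc39a11 and Slc39a9 stood at 24.3 and 15.4 FPKM. Slc39a3 and Slc39a13 were at 4.86 and 3.03 FPKM. Below 1 FPKM were Slc39a2 and the intestinal importer gene Slc39a4, at 0.66 and 0.53 FPKM, while Slc39a5 was listed at 0. Of the genes listed for zinc handling outside the carriers, the metallothionein genes Mt1 and Mt2, whose products bind zinc and copper, were at 84.7 and 27.2 FPKM, and Mtf1, the zinc-sensing transcription factor gene, was at 4.26. Metallothionein Mt3, a brain form, was listed at 0.

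Promoter sequences were compared for the members that a RefSeq promoter table of the build GRCm38.p6 holds. Each window runs from 250 bases before to 50 after an annotated start, and 46 of the 63 members matched, with 58 windows. The core of the metal response element bound by MTF1, searched as TGCACNC or TGCGCNC on both strands, occurred in 25 of these 58 windows, or 43.1%, beside 25.7% of all 32851 windows and 29.3% of those of protein-coding genes. Counted by gene, it occurred in 24 of the 46 matched members, or 52.2%, beside 28.2% of all 27025 genes of the table. Only 17492 of those genes are protein-coding, and the share by gene among them was not computed. The core was found in 9 of 16 matched zinc carriers and in 15 of the 30 other matched members, so the zinc families were close to the rest. The core contains C and G, and the members' windows were also rich in CpG dinucleotides, with a median of 20.5 in the richest window of each member, against 15 for protein-coding genes; the part of base composition in the share was not tested. With the same search Mt1 had 3 matches and Mt2 had 4. The windows below are those of Slc34a2, the highest member, of Slc30a4, which had the most matches of any member, and of Slc30a1, a known target of MTF1. Capitals mark the matches to the core, read on either strand.
Slc34a2, chr5:53049103-53049402, plus strand: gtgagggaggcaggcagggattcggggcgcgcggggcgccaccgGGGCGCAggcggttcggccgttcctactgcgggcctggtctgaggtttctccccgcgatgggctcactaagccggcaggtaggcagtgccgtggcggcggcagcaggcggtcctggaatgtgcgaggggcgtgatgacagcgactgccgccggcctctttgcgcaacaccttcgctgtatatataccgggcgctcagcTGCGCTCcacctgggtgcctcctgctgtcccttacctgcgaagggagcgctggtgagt
Slc30a4, chr2:122702614-122702913, minus strand: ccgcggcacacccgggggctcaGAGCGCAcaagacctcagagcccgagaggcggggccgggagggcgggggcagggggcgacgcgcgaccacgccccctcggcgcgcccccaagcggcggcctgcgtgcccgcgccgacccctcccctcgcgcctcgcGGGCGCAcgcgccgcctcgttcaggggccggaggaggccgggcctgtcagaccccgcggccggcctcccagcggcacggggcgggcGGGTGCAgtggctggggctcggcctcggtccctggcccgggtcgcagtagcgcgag
Slc30a1, chr1:191906531-191906830, plus strand: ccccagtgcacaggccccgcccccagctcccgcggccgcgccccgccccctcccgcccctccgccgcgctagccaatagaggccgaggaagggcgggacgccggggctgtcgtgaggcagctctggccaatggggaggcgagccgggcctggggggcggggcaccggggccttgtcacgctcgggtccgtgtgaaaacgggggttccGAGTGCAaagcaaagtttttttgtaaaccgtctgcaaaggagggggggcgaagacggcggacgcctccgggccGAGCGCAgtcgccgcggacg
The matches began at positions -206 and -8 from the start in Slc34a2, at -228, -92 and -6 in Slc30a4, and at -43 and 31 in Slc30a1. These genes stood at 275, 44.2 and 3.12 FPKM. Of all matched members, the core occurred in 9 of 14 at 10 FPKM or more, or 64.3%, and in 15 of 32 below it, or 46.9%, with a median of 23 and 18.5 CpG dinucleotides in the richest window. Only 14 of the 20 members at 10 FPKM or more had a window, and Slc9a4, Slc39a14 and Slc11a2 had none. Of matched members, the core was more frequent in the 19 below 1 FPKM than in the 13 from 1 to below 10 FPKM. These groups are small, and Slc39a5, listed at 0, had the core. Whether the core goes with level was not tested. A match is a string of letters and was not tested as a binding site.

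The letters TTCNNNGAA, the core recognised by STAT5, occurred in 2 of the 58 windows, or 3.45%, beside 8.30% of all windows and 7.69% of those of protein-coding genes; the motif reads the same on both strands. Of the matched members it was found in Slc39a10 and in Slc12a8, a gene at 0.14 FPKM. Of the 2 starts annotated for Slc39a10, 1 carries it in its window. That window holds 1 CpG dinucleotide and the other holds 47. Which start was used in this library was not tested. Capitals mark the match.
Slc39a10, chr1:46925727-46926026, minus strand: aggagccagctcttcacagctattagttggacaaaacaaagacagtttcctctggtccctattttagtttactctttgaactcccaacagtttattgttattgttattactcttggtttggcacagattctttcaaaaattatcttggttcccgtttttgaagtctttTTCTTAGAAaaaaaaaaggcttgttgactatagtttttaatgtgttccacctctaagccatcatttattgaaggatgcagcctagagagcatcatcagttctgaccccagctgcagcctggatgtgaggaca
The match began at position -82. Slc34a2 and the other matched members lacked these letters in the windows searched. STAT5A peaks and H3K4me3 regions of day 6 of pregnancy were not assigned to genes here, because their coordinates are in mm9 and the sequence table is not.

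Of the iron carriers, Slc11a2, the divalent metal importer that brings iron into the cytosol from the gut lumen and from endosomes, was at 28.1 FPKM. Slc40a1 encodes ferroportin, the iron exporter of the plasma membrane, and stood at 1.08 FPKM, 25.9 times lower. Each was carried by a single locus. Slc11a1, the phagosomal metal carrier of macrophages, was at 1.30 FPKM. The 7 macrophage markers measured of the 9 listed ranged from 0.54 to 98.5 FPKM around a median of 1.97, led by Cd14 at 98.5, Lyz2 at 62.0 and Csf1r at 3.004, and Emr1, the gene of the surface antigen F4/80, was at 1.97. Cd14 and Lyz2 are also expressed outside macrophages. How much of the Slc11a1 level comes from macrophages was not tested. The 13 measured genes listed for iron handling had a median of 24.5 FPKM and 9 reached 10 FPKM. The transferrin gene Trf stood at 11909 FPKM, the ferritin genes Fth1 and Ftl1 at 1227 and 491, and the transferrin receptor gene Tfrc at 147. The ferroxidase gene Cp was at 151 FPKM and Heph, another ferroxidase that works with ferroportin, at 2.62.

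The copper importer gene Slc31a1 stood at 29.1 FPKM and Slc31a2, a related gene of endosomal membranes, at 14.2, a ratio of 2.04. The 7 genes listed for copper handling had a median of 31.1 FPKM. The chaperone genes Atox1 and Cox17 were at 124 and 61.7 FPKM and the superoxide dismutase gene Sod1 was at 47.2, while the copper pump genes Atp7b and Atp7a were at 7.49 and 2.54. In the magnesium family the level lay almost wholly with Slc41a1, a sodium-magnesium exchanger, at 46.3 FPKM. Slc41a2 and Slc41a3 were at 0.77 and 0.43 FPKM, so that Slc41a1 stood 60.3 times above Slc41a2. Slc41a1 had 3 loci, at 46.3, 39.6 and 10.7 FPKM, and with their sum of 96.6 it would rank directly below Slc34a2 rather than at place 5. Of 7 measured genes listed for magnesium handling, Magt1 led at 46.0 FPKM, followed by the channel-kinase gene Trpm7 at 11.4 and the mitochondrial channel gene Mrs2 at 10.96, and Trpm6, the related channel of gut and kidney, was listed at 0.

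**Figure D3:**
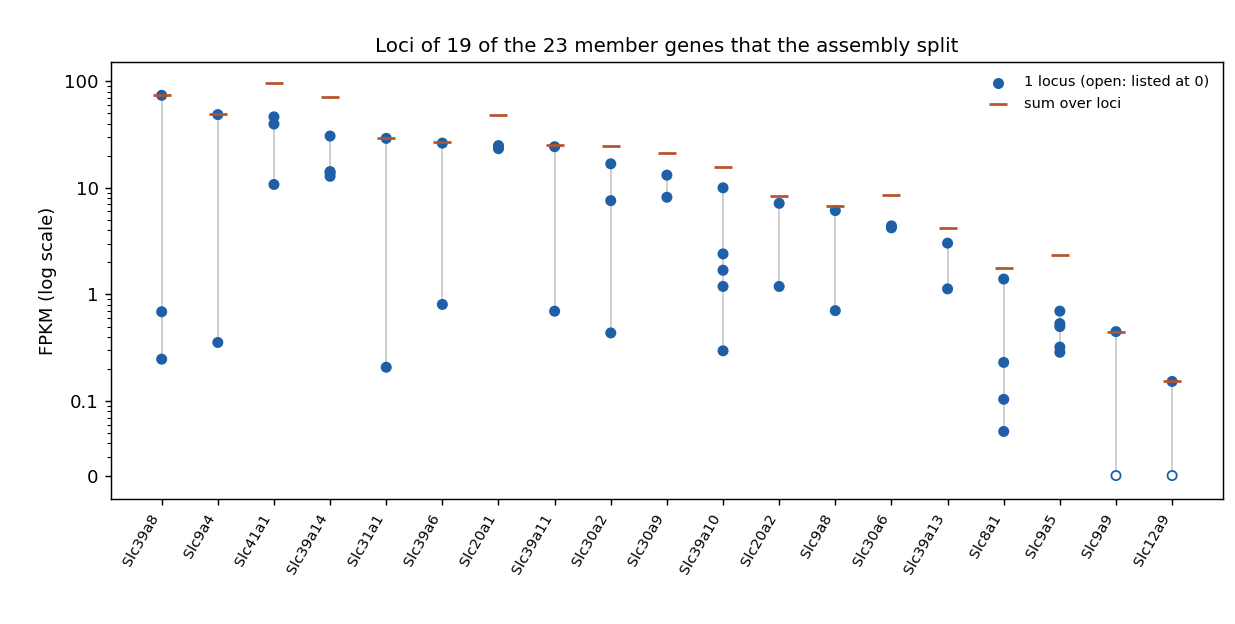
FPKM on a log scale of each assembled locus (points, open where listed at 0) of 19 of the 23 genes that had more than 1 locus, with their sum (bars), in order of the highest locus. These are 23 of the 63 members, beside 3832 of all 14847 named genes. In Slc41a1, Slc39a14 and Slc20a1 several loci stand at similar levels and the sum is 1.94 to 2.34 times the highest locus, whereas in Slc39a8, Slc9a4 and Slc31a1 a single locus carries nearly all of it.

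Among the 8 measured sodium-proton exchanger genes of SLC9, Slc9a4, known as a basolateral exchanger of gastric parietal cells and kidney tubules, stood at 48.6 FPKM, and it was the only one to reach 10. Slc9a8, a Golgi exchanger, followed at 6.11 FPKM, 7.95 times lower. Slc9a2, which encodes an apical exchanger, was at 3.39 FPKM. Slc9a2 and Slc9a4 are direct neighbours among protein-coding genes in the gene table of GRCm38.p6, the only such pair among the 63, and their levels differed by a factor of 14.3. The second locus of Slc9a4 stood at 0.35 FPKM, so its level came from 1 locus, and 3 exchanger genes, Slc9a5, Slc9a7 and Slc9a9, were at 0.70, 0.46 and 0.45 FPKM. The scaffold genes Slc9a3r1 and Slc9a3r2, whose products bind exchangers and phosphate cotransporters at the membrane, were at 60.8 and 39.997 FPKM. They are not carriers, despite their symbols.

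Carriers of chloride and bicarbonate were mostly low. Slc12a2 encodes the sodium-potassium-chloride cotransporter that loads secretory cells with chloride, and it led the SLC12 family at 18.1 FPKM. Slc12a7, which encodes a potassium-chloride cotransporter that moves chloride out, was at 2.37 FPKM, and the related Slc12a4 was at 0.79. Slc12a2 was 7.63 times above Slc12a7. The neuronal form Slc12a5 was at 0.25 FPKM. Of the kinase genes that control these cotransporters, Stk39, Wnk1 and Oxsr1 stood at 33.5, 22.7 and 7.92 FPKM, and the hormone-induced kinase gene Sgk1 was at 40.01. None of the 7 measured SLC4 genes reached 10 FPKM, beside 27.9% of named genes. The anion exchanger gene Slc4a2 was at 7.81 FPKM and the sodium-bicarbonate cotransporter gene Slc4a7 at 5.20, while 3 others lay between 0.17 and 0.65 and Slc4a5 and Slc4a8 were listed at 0. Among 6 SLC26 genes the sulfate carrier gene Slc26a2 stood at 10.2 FPKM and Slc26a7, a chloride and bicarbonate carrier of stomach and kidney, at 1.94, and the other four lay between 0.11 and 1.84. Carbonic anhydrases, which supply bicarbonate and protons to such carriers, were led by Car3 at 389 FPKM, Car4 at 63.6 and Car2 at 54.0. Car3 is a gene of fat and muscle, and the 8 adipocyte markers ranged from 5.51 to 723 FPKM in the same library, led by Fabp4 at 723, Cfd at 523 and Adipoq at 115; their part in the Car3 level was not tested. Of the listed ion pumps and channels, the potassium channel gene Kcnn4 stood at 65.4 FPKM and the water channel gene Aqp3 at 32.6.

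**Figure D4:**
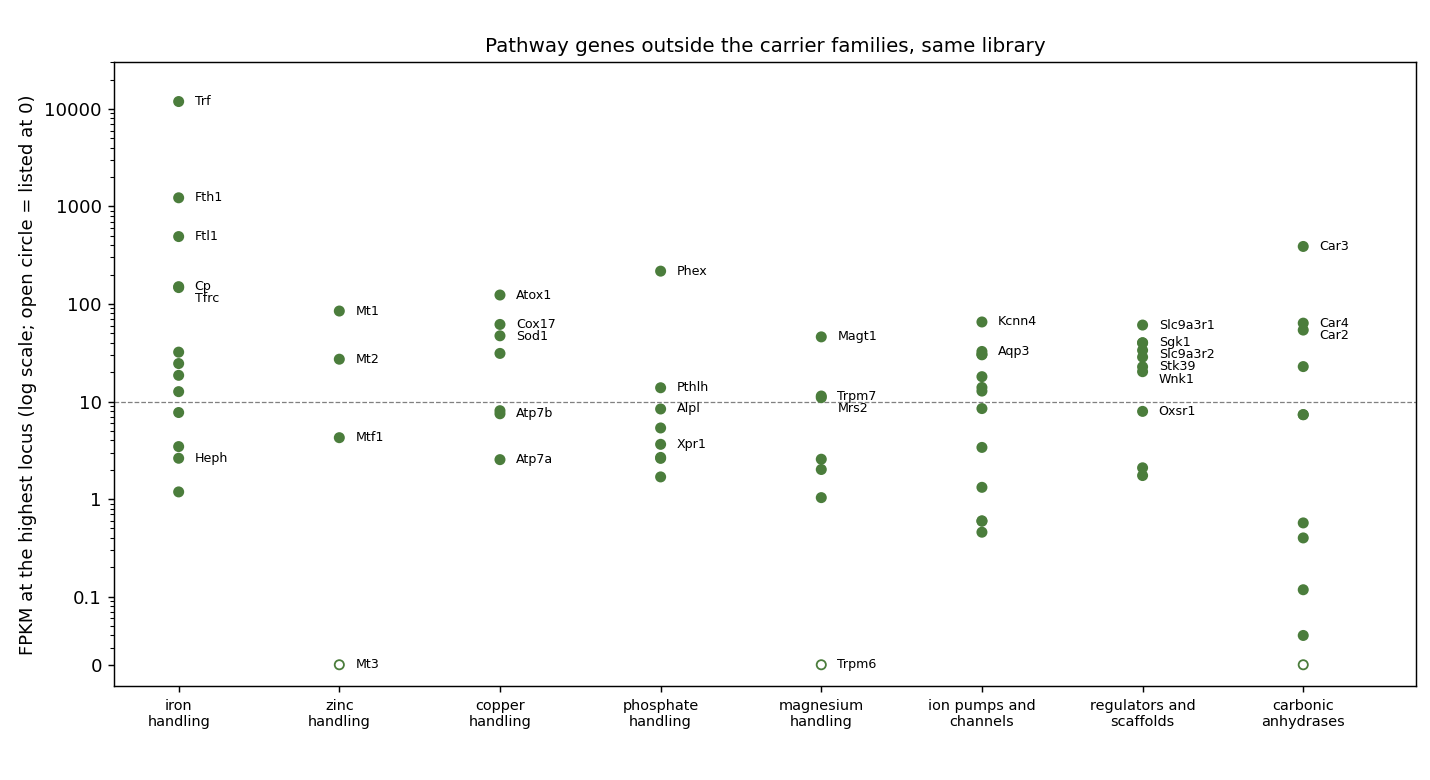
FPKM on a log scale of genes from 8 pathway lists outside the carrier families, in the same library; each point is 1 gene, open circles are listed at 0, the dashed line marks 10 FPKM and names, given for part of the genes, run down in order of level. Trf, Fth1 and Ftl1 of iron handling lie above every carrier, and Phex and Car3 are the highest of their lists at 217 and 389 FPKM.

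Of the 5 measured sodium-calcium exchanger genes of SLC8 and SLC24, none reached 10 FPKM, beside 27.9% of named genes. Slc24a6, now named Slc8b1, encodes the exchanger of the inner mitochondrial membrane and was the highest at 8.23 FPKM, with Slc24a3, a potassium-dependent exchanger, at 6.03. The heart exchanger gene Slc8a1 stood at 1.39 FPKM over 4 loci that summed to 1.78, the pigment cell gene Slc24a5 at 0.32 and the neuronal gene Slc8a2 at 0.047.

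The tissue was checked against its markers. All 8 luminal epithelial markers reached 10 FPKM, ranging from 21.4 to 577 and led by Elf5 at 577, Krt19 at 244 and Krt18 at 179. Of basal and myoepithelial markers 7 were measured, from 3.37 to 59.0 FPKM, led by Cnn1 at 59.0, Krt14 at 54.2 and Krt5 at 37.9. Skeletal muscle genes ranged from 0.29 to 37.2 FPKM, with 5 of 9 at 10 FPKM or more, led by Tnnt3 at 37.2, Tnni2 at 27.9 and Ckm at 27.6. Myh1, Ttn and Ryr1 of that list were at 0.82, 0.75 and 0.29 FPKM. The endothelial genes Pecam1, Cdh5 and Egfl7 led 6 markers at 15.1, 14.3 and 9.88 FPKM. Of the 5 nervous tissue markers measured, Mbp was highest at 10.3 and Tubb3 was listed at 0, and of 3 erythroid markers Alas2 at 1.68, Ank1 at 1.501 and Klf1 at 0.35. In whole tissue a low level in many cells and a high level in a few cannot be told apart, so no level above is assigned to a cell type.

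Of the 63 genes, 3 were listed at 0, 18 lay between 0 and 1 FPKM, 22 between 1 and 10, 19 between 10 and 100 and 1 above 100. The genes between 0 and 1 FPKM came from families 4, 8, 9, 12, 24, 26, 39 and 41, and none from the zinc exporters, the iron and copper carriers or the phosphate carriers. Among the 46 members with a promoter window were 14 of the 20 at 10 FPKM or more. Their richest windows held a median of 23 CpG dinucleotides, with a range from 12 to 46. Those from 1 to below 10 FPKM, 13 genes, were close to that, with a median of 22 and a range from 2 to 47. Those below 1 FPKM, 19 genes, had a median of 13 and a range from 3 to 50, so the ranges overlapped. The RefSeq table lists 84 protein-coding genes whose symbols meet the rule, and 22 of these were not analysed here, among them Slc34a1, Slc34a3, Slc39a7, Slc30a10, Slc12a1 and Slc4a1.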

How the data were processed

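Poly(A) RNA of 1 library was sequenced on an Illumina HiSeq, per the labels' protocols. The submitters' processing notes name CASAVA, TopHat and mm9. Which program assembled the transcripts and computed FPKM is not stated. The authors' deposited table gives FPKM for 30305 loci, with no counts, lengths, strand or coordinates, so no interval could be computed. Reads from overlapping or antisense genes cannot be separated.

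Loci with exactly 1 symbol were kept, and a gene took its highest locus (Python 3.11.15, pandas 2.3.3). No minimum was applied. The other 10 samples of the series were not used. Members and gene lists were chosen with earlier results of these data known. Named genes are the 25 highest members, the 2 highest of each family, carriers known from milk, zinc, iron, copper or phosphate transport, members listed at 0, and the 3 highest genes of each pathway or marker list; Slc30a1, Slc30a6 and other members and pathway genes beyond these were named after their values were seen. Summing, locus choice and motif search were tested on simulated data or known genes. Promoter windows are from RefSeq, GRCm38.p6, matched by symbol. A few named genes are not reported here.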

Additional observations from a re-analysis of the deposited data

How the results depend on the processing

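A value was taken as unmoved when it stayed within 1.5 times the reported one. With FPKM summed over loci, 21 of 63 members reached 10 FPKM, and their median was 4.15 FPKM; with loci of several symbols included, 20 members did and the median was 4.39. With genes of a single locus only, 10 of 40 members reached 10 FPKM and the median was 1.78; that setting removes 23 genes. With an FPKM minimum of 1 the median was 9.11 over 42 members, because low genes are removed. Counting loci of at least 1 FPKM only, 9 members rather than 23 had several loci. With no minimum, 3832 of all 14847 named genes had several loci. Of metal carriers, 16 of 27 reached 10 FPKM by sums and 7 of 16 with a single locus, and of the other members 5 of 36 and 3 of 24. The share held by the highest 5 ranged from 52.7% to 77.3% over these settings. On the log2 scale the median member was 2.14 with a pseudocount of 1 and 1.81 with 0.1. Of the 14 members with several loci that were named by rule, 5 moved by more than 1.5 times when loci were summed: Slc20a1, Slc30a9, Slc39a10, Slc39a14 and Slc41a1. Of those named after their values were seen, Slc9a5 moved from 0.70 to 2.34 FPKM and Slc30a6 from 4.39 to 8.60. A sum of FPKM over loci is not the FPKM of a gene, since the loci differ in length. Among named genes, 29.9% reached 10 FPKM by sums and 28.9% when only protein-coding genes were counted, both settings added after the data were seen, as were all those for metal carriers and other members. No paired analysis was possible because only 1 library entered and no test was made.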

Other observations

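Slc12a9, an orphan member of the cation-chloride family, stood at 0.15 and 0 FPKM at its own loci, while a locus that carries both its symbol and that of Trip6 stood at 5.30 FPKM. That locus was left out of the levels above, and how it divides between the genes cannot be told.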
